A study of Mus musculus with 15 samples.

Results

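This account covers the genes for the calcium channels of the endoplasmic reticulum and for store-operated calcium entry: the release channels Itpr1, Itpr2, Itpr3 and Ryr2, the store sensors Stim1 and Stim2, and the entry pores Orai1, Orai2 and Orai3. They were chosen by gene symbol for what they encode, and are 9 of the 51912 genes in the table. In B cells, antigen receptor signalling makes the messenger IP3, which opens IP3 receptors (the Itpr genes) and releases calcium from the endoplasmic reticulum; ryanodine receptors such as Ryr2 are related release channels best known from heart muscle. STIM proteins span the membrane of that store, sense when it empties, and open ORAI pores in the plasma membrane. The calcium that then enters activates enzymes and transcription factors, among them the NFAT family.

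All libraries came from wild-type mouse B cells grown in vitro for 6 days on 40LB cells, a fibroblast feeder layer, with IL-4 at 100 ng/ml. The day 6 group (D6) is unsorted culture taken at that point, with no further treatment. The other 4 groups were lifted off the feeders, left for 2 more days without stimulation and sorted on day 8 into IgE iGC, IgG1 iGC, IgE PC and IgG1 PC, where PC means plasma cell and iGC is a name the labels do not spell out; there were 3 biological replicates in each of the 5 groups, and the labels do not say whether equal numbers share an animal or a culture. The study's title concerns calcium signalling in the differentiation and survival of IgE plasma cells, and these genes encode the channels such signalling runs through.

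Levels are in CPM (read counts relative to the library size, scaled to the bulk of genes by TMM) unless TPM (transcript abundance corrected for length) is named. A gene is said to rise or fall where its adjusted p-value in the fit over all 15692 genes tested (edgeR's quasi-likelihood test, Benjamini-Hochberg) is under 0.05. All 9 genes passed the filter on low counts; Ryr2 passed it through the libraries in which it is high. Library totals ran from 17.7 M to 54.1 M expected counts, and immunoglobulin genes held 1.39% to 21.7% of them, most in PC. Plasma cell markers rose in PC of both isotypes (8 of 8 in each), and B cell markers fell (7 of 7 in IgE, 6 of 7 in IgG1). Between PC groups, 6 of 8 plasma cell markers were higher in IgE and 0 lower, beside 27.4% of all genes higher. Of the 7 B cell markers, 4 were lower in IgE PC and 0 higher, beside 30.7% of all genes lower. In iGC, 4 of 8 plasma cell markers were higher in IgE and 0 lower, beside 1.99% of all genes higher. The part of these differences in the isotype comparisons was not tested. Summed levels of 12 fibroblast markers were 218 to 356 CPM in D6, 67.5 to 200 in IgG1 PC, 53.3 to 72.2 in IgE iGC, 30.7 to 62.6 in IgG1 iGC and 22.9 to 37.9 in IgE PC; Lum and Postn, in that list, were at or near 0 in every group. The T cell list (10 genes, summed 5.48 to 68.5 CPM) was highest in IgE PC through Cd28, with Cd3e at 0 in all IgE PC libraries, and the myeloid list (12 genes) summed to 10.3 to 27.6 CPM. The 3 IgG1 PC libraries differed among themselves more than those of other groups (chi-square per degree of freedom of 30.6 to 105, against 4.82 to 26.1). In bulk RNA, fewer cells of a type and less RNA per cell cannot be told apart.

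Among the release channels, IgE PC had the lowest Itpr3 and the highest Itpr2 of the 5 groups in CPM, and almost no Ryr2; by TPM, Itpr2 was highest in IgE iGC. Itpr3 was 1.82-fold lower in IgE PC than in IgG1 PC, and Itpr2 was 1.38-fold higher. Over the 9 channel genes, 7 differed between IgE PC and IgG1 PC (4 higher and 3 lower in IgE PC), where 58.1% of all genes did (27.4% higher and 30.7% lower). The split depends on the scale: under total-count scaling 4 were called (1 higher, Stim2, and 3 lower), against 14.5% of all genes higher and 46.3% lower, and on log2(TPM + 1) 2 were called, both lower (17.6% and 34.8%). Between IgE iGC and IgG1 iGC, 0 of 9 differed, against 3.87% of all genes (1.99% higher and 1.88% lower); there 1 of 9, Stim1, had an unadjusted p under 0.05 (0.0132), and DESeq2 called 0.

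**Figure D1:**
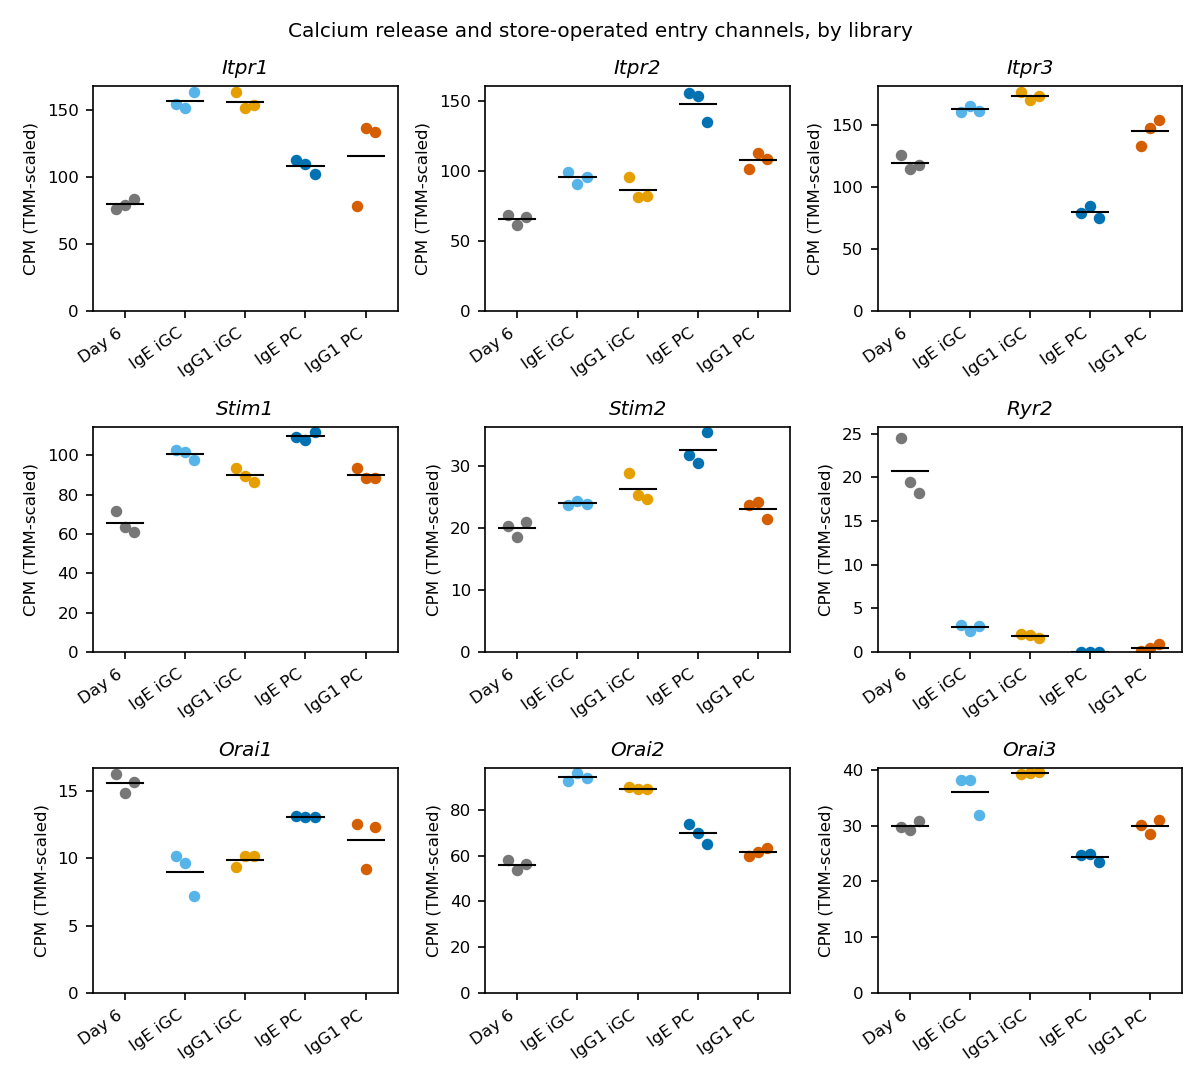
CPM (TMM-scaled, vertical axes from 0) of each of the 9 genes in every library; points are libraries, lines are means of 3, and colours are the 5 groups. Itpr3 sits at 74.6 to 84.6 in IgE PC, under every other library, and Ryr2 lies at 18.2 to 24.5 in D6 and under 4 elsewhere.

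Itpr3 (ENSMUSG00000042644; chromosome 17, 27057304 to 27122223, plus strand, GRCm38) and Orai3 (ENSMUSG00000043964; chromosome 7, 127769815 to 127775150, plus strand) followed each other most closely among these genes, with a Pearson r of 0.904 over 15 libraries, which share culture, group means and scaling. Ryr2 (ENSMUSG00000021313; chromosome 13, 11553102 to 12106945, minus strand) is the gene with the widest range. The 250 bases before the RefSeq start of these 3 genes (GRCm38.p6) are printed to show what the promoters of the pair that moves together and of Ryr2 hold; capitals mark matches, on either strand, to the CCAAT box (CCAAT), the TATA box (TATAAA), the GC box (GGGCGG), the NFAT core (GGAAA) or the STAT6 site (TTCNNNNGAA).
Itpr3, chr17:27057054-27057303, plus strand: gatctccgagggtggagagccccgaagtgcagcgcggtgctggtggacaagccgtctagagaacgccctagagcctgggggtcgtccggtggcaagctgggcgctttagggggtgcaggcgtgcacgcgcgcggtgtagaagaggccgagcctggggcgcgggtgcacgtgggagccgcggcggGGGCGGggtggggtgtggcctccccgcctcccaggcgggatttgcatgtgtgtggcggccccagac
Orai3, chr7:127769565-127769814, plus strand: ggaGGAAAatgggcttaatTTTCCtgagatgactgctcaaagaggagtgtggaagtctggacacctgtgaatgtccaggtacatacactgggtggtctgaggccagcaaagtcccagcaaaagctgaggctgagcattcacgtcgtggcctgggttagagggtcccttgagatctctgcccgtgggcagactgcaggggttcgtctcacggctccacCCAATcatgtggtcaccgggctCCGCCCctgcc
Ryr2, chr13:12106946-12107195, minus strand: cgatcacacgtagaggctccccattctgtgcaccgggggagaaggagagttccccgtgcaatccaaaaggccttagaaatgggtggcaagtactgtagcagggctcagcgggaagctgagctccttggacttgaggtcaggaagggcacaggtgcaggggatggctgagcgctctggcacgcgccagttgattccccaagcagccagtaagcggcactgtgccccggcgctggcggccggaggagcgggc
The Itpr3 window held 1 match, a GC box, and 25 CpG dinucleotides. The Orai3 window held 2 NFAT cores, 1 CCAAT box, 1 GC box and 7 CpG, and the Ryr2 window held 0 matches and 14 CpG. Over all 32851 RefSeq promoters of this length, 33.8% held the CCAAT box, 12.4% the TATA box, 32.7% the GC box, 55.6% the NFAT core and 5.85% the STAT6 site, and the median window held 6 CpG. Of the 8 channel genes with an entry, 7 held a GC box (Ryr2 did not) and 2, Orai2 and Orai3, held an NFAT core. These are matches of letters, with no measurement of binding.

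Itpr3, an IP3 receptor subtype, stood at 78.8, 84.6 and 74.6 CPM in the 3 IgE PC libraries and at 132, 148 and 153 in IgG1 PC. It was 160, 165 and 161 in IgE iGC, 176, 170 and 173 in IgG1 iGC, and 126, 114 and 117 in D6. The IgE PC libraries were below all others, and the ranges of IgE PC and IgG1 PC did not overlap. The log2 fold change between them was -0.87 (SE 0.06, adjusted p = 2.2e-08, edgeR). From iGC to PC, Itpr3 fell by 1.03 on the log2 scale in IgE cells (SE 0.06, adjusted p = 7.34e-10, edgeR) and by 0.26 in IgG1 cells (SE 0.06, adjusted p = 0.00215, edgeR). The test of the difference between these changes (the interaction) gave -0.77 (SE 0.09, adjusted p = 7.24e-06, edgeR), so the fall was larger in IgE.

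Unlike Itpr3, Itpr2 (ENSMUSG00000030287; chromosome 6, 146108299 to 146502223, minus strand), the IP3 receptor subtype with the highest IP3 affinity, was higher in IgE PC than in IgG1 PC. It stood at 156, 154 and 135 CPM in IgE PC and at 102, 113 and 109 in IgG1 PC. It was 99.6, 91.1 and 96.0 in IgE iGC, 95.6, 81.4 and 81.9 in IgG1 iGC, and 68.4, 61.3 and 67.0 in D6. All IgE PC libraries were above all others, and the D6 libraries were the lowest. Between PC, Itpr2 was higher in IgE by 0.46 on the log2 scale (SE 0.08, adjusted p = 9.33e-05, edgeR), a difference that missed the threshold when libraries were scaled by total counts (0.21, adjusted p = 0.0505) or compared on log2(TPM + 1) (0.22, adjusted p = 0.228, limma). From iGC to PC it rose by 0.63 in IgE and by 0.32 in IgG1 on the log2 scale relative to the bulk of genes, while under total-count scaling the changes were 0.17 (adjusted p = 0.0985) and 0.09 (adjusted p = 0.369) and on log2(TPM + 1) the sign turned to -0.26 and -0.32. The interaction for Itpr2 was 0.31 (adjusted p = 0.0275, edgeR), and it missed the threshold on log2(TPM + 1) (0.06, adjusted p = 0.846, limma), without IgE iGC replicate 2 (0.28, adjusted p = 0.0737), IgE PC replicate 1 (0.28, 0.0711), IgE PC replicate 2 (0.29, 0.0627) or IgG1 iGC replicate 1 (0.24, 0.0825), and under total-count scaling (0.07, 0.654).

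Itpr1 (ENSMUSG00000030102; chromosome 6, 108213096 to 108551109, plus strand), the IP3 receptor transcript with the highest TPM in iGC cells, was 154, 151 and 163 CPM in IgE iGC and 163, 151 and 154 in IgG1 iGC. It was 113, 109 and 102 in IgE PC and 76.4, 79.3 and 83.9 in D6. The IgG1 PC libraries stood at 78.1, 136 and 134, so that replicate 1 was below and the other two above all IgE PC libraries. Itpr1 fell from iGC to PC in both isotypes (log2 fold change -0.53, adjusted p = 0.00523, in IgE and -0.43, adjusted p = 0.0206, in IgG1, edgeR). In IgG1 cells the fall missed the threshold without IgG1 iGC replicate 1 (-0.40, adjusted p = 0.0602), with only the groups compared (-0.41, adjusted p = 0.108) and with no filter (-0.44, adjusted p = 0.0773). Leaving out 1 library at a time, that fall ranged from -0.57 to -0.21. Between IgE PC and IgG1 PC the log2 fold change was -0.10 (95% interval -0.39 to 0.18, adjusted p = 0.566, edgeR). Without IgG1 PC replicate 1 it was -0.32 (adjusted p = 0.000114, edgeR) and the interaction, which had been -0.10 (adjusted p = 0.717), was -0.32 (adjusted p = 0.0022).

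Shares within a library do not depend on how libraries are scaled. By TPM, Itpr3 made up 20.03% ± 0.0723 of IP3 receptor transcripts in IgE PC and 32.7% ± 3.12 in IgG1 PC (mean ± SD, n = 3 each). Itpr2 made up 40.9% ± 0.805 in IgE PC and 28.2% ± 4.43 in IgG1 PC, against 23.6% ± 1.74 in IgE iGC and 20.7% ± 1.32 in IgG1 iGC. The shares of both genes did not overlap between the PC groups. Itpr1 made up 39.1% ± 0.776 in IgE PC and 39.1% ± 6.03 in IgG1 PC. The ratio of Itpr2 to Itpr3 TPM was 1.99 to 2.08 in IgE PC and 0.544 to 1.01 in every other library. With 3 libraries against 3 the exact permutation test cannot go below p = 0.1 (two-sided), which the Itpr2 and Itpr3 shares reached between PC groups (0.175 when adjusted by Benjamini-Hochberg over 28 such tests). Most of those 28 tests reached it, each without overlap of libraries.

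**Figure D2:**
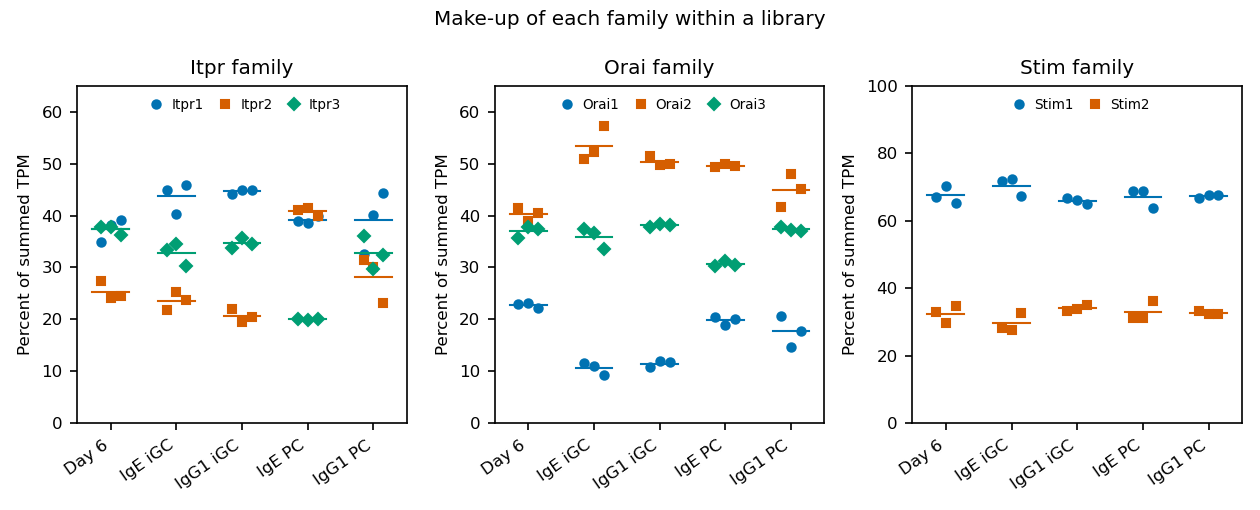
Percent of each family's summed TPM held by each gene (vertical axes), per library; points are libraries and lines are means of 3 in each of the 5 groups. In IgE PC the Itpr3 share drops to 20.03% and the Itpr2 share reaches 40.9%, and the Orai1 share is lowest in both iGC groups.

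Ryr2 was highest in the day 6 culture. Its expected counts were 1081, 823 and 719 in D6, 134, 87 and 57 in IgE iGC, and 82, 72 and 55 in IgG1 iGC. In PC they were 3, 22 and 44 in IgG1 and 0, 1 and 1 in IgE. No D6 library overlapped any other, and the order D6, iGC, IgG1 PC, IgE PC held without overlap of libraries. In CPM, D6 stood at 20.8 ± 3.33, IgE iGC at 2.80 ± 0.339 and IgG1 iGC at 1.85 ± 0.222 (mean ± SD, n = 3 each). Against D6 the log2 fold change of Ryr2 was -2.89 in IgE iGC (SE 0.29, adjusted p = 4.08e-07) and -3.49 in IgG1 iGC (SE 0.30, adjusted p = 7.51e-08, edgeR). The 2 IgE PC counts against 69 in IgG1 PC gave a ratio of 25.8 with a 95% counting interval of 6.88 to 217, and 2 against 278 in IgE iGC a ratio of 133 (36.4 to 1101); these intervals cover counting error only. The edgeR test over all groups called Ryr2 lower in IgE PC than in IgG1 PC (adjusted p = 0.000469). Ryr2 entered that test through the D6 and iGC libraries, in which its counts are higher. With only the PC groups compared, Ryr2 did not pass the filter on low counts and was not tested. Limma on log2(TPM + 1) did not call it (adjusted p = 0.371), since TPM was 0 in all IgE PC libraries and 0.01 to 0.27 in IgG1 PC. The fitted values in PC rest on few counts. Leaving out 1 library at a time from the fit over all groups, the Ryr2 difference between PC groups ranged from -4.85 to -3.64. The change in the IgG1 step ranged from -2.60 to -1.45, and both were called each time in that fit. The lowest fold between PC groups came without IgG1 PC replicate 3, the library with 44 counts (-3.64, adjusted p = 0.00119). Without it the IgG1 step was -2.60, and without replicate 1, with 3 counts, -1.45, against -1.79 with all libraries. Fibroblast markers were also highest in D6 and lowest in IgE PC. In D6, Ryr2 at 24.5, 19.5 and 18.2 CPM stood beside marker sums of 218, 349 and 356, and in IgG1 PC 0.105, 0.425 and 0.950 CPM stood beside 200, 67.5 and 196; the part of these cells in the result was not tested.

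The sensors were led by Stim1, and in CPM both were highest in IgE PC. Stim1 (ENSMUSG00000030987; chromosome 7, 102267806 to 102437319, plus strand), the main store sensor of lymphocytes, was 109, 108 and 112 CPM in IgE PC and 93.2, 88.3 and 88.5 in IgG1 PC. It was 103, 101 and 97.7 in IgE iGC, 93.6, 89.5 and 86.4 in IgG1 iGC, and 71.6, 63.4 and 61.2 in D6. IgE PC lay above all other libraries and D6 below them. The isotype difference in PC was 0.28 on the log2 scale (SE 0.06, adjusted p = 0.000656, edgeR) and was 0.03 (adjusted p = 0.621) under total-count scaling. From iGC to PC the change of Stim1 was 0.12 (adjusted p = 0.0788) in IgE and 0.00 (adjusted p = 0.976, edgeR) in IgG1. In IgE it was called higher without immunoglobulin genes (0.18, adjusted p = 0.0159), with DESeq2 (0.14, adjusted p = 0.0266) and with only the groups compared (0.14, adjusted p = 0.00468). Under total-count scaling it was called lower, at -0.35 in IgE (adjusted p = 4.27e-05) and -0.23 in IgG1 (adjusted p = 0.00201). On log2(TPM + 1) it was also called lower, at -0.62 in each (limma).

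Stim2 (ENSMUSG00000039156; chromosome 5, 53998499 to 54121057, plus strand), which responds to smaller losses of store calcium, was 31.9, 30.6 and 35.5 CPM in IgE PC and 23.7, 24.3 and 21.5 in IgG1 PC. It was 23.7, 24.4 and 24.0 in IgE iGC, 29.0, 25.4 and 24.7 in IgG1 iGC, and 20.4, 18.6 and 21.0 in D6. The IgE PC libraries were above all others. Stim2 was higher in IgE PC than in IgG1 PC by 0.50 on the log2 scale (SE 0.08, adjusted p = 7.05e-05, edgeR), which missed the threshold on log2(TPM + 1) (0.13, adjusted p = 0.348, limma). In IgE cells it rose from iGC to PC by 0.44 (adjusted p = 0.000147, edgeR), with the sign turned to -0.03 under total-count scaling and -0.39 on log2(TPM + 1). In IgG1 cells the change was -0.19 (adjusted p = 0.0511, edgeR). It passed the threshold under total-count scaling (-0.42, adjusted p = 0.000137), with DESeq2 (-0.21, adjusted p = 0.0349) and without immunoglobulin genes (-0.19, adjusted p = 0.0488). It also passed on log2(TPM + 1) (-0.68, adjusted p = 6.93e-05, limma), and without IgG1 iGC replicate 3 (-0.24, adjusted p = 0.0345) or IgG1 PC replicate 2 (-0.24, adjusted p = 0.0233). It did not pass with no filter, with the replicate block or with only the groups compared. The interaction for Stim2 was 0.63 (SE 0.11, adjusted p = 0.000375, edgeR), against 0.29 (adjusted p = 0.181) on log2(TPM + 1).

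By TPM, Stim1 held 66.0% to 70.5% of the sensor transcripts as group means, and this share differed between the PC groups by -0.21 percentage points (exact permutation p = 1, two-sided). Between iGC groups it was 70.5% in IgE and 66.0% in IgG1, without overlap, a difference of 4.47 points (exact permutation p = 0.1, two-sided, 0.175 adjusted).

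The entry pores were led by Orai2, and the pore gene studied most in lymphocytes, Orai1, had the lowest TPM of the 3 in every group. Orai1 (ENSMUSG00000049686; chromosome 5, 123015074 to 123030456, plus strand) was 16.2, 14.9 and 15.6 CPM in D6, 10.1, 9.66 and 7.18 in IgE iGC and 9.37, 10.2 and 10.1 in IgG1 iGC. It was 13.1, 13.0 and 13.1 in IgE PC and 12.6, 9.21 and 12.3 in IgG1 PC. IgE PC lay between D6 and iGC without overlap, and IgG1 PC overlapped iGC. Orai1 fell from D6 to iGC (log2 fold change -0.77, adjusted p = 4.17e-05, in IgE and -0.65, adjusted p = 0.000184, in IgG1, edgeR). It rose from IgE iGC to IgE PC by 0.52 (SE 0.12, adjusted p = 0.00162, edgeR), a value that was 0.06 under total-count scaling and -0.15 on log2(TPM + 1). In IgG1 cells the change was 0.19 (adjusted p = 0.185, edgeR), and without IgG1 PC replicate 2 it was 0.31 (adjusted p = 0.0205). Between PC groups it was 0.21 (95% interval -0.03 to 0.45, adjusted p = 0.154, edgeR).

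Orai2 (ENSMUSG00000039747; chromosome 5, 136147459 to 136170713, minus strand), a pore subunit that can lower the current carried by ORAI1, was 92.5, 96.2 and 94.1 CPM in IgE iGC and 90.0, 89.0 and 89.0 in IgG1 iGC. It was 73.8, 70.1 and 65.3 in IgE PC, 60.1, 61.8 and 63.4 in IgG1 PC, and 58.1, 53.6 and 56.2 in D6. The iGC libraries were the highest. Orai2 fell from iGC to PC by 0.43 in IgE (adjusted p = 2.12e-06) and by 0.53 in IgG1 (adjusted p = 4.49e-07, edgeR) on the log2 scale. IgE PC stood above IgG1 PC by 0.18 (adjusted p = 0.00921, edgeR). This difference missed the threshold without IgE PC replicate 1 (0.13, adjusted p = 0.0556) and with only the groups compared (0.17, adjusted p = 0.103, edgeR). It turned to -0.08 (adjusted p = 0.33) under total-count scaling.

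Orai3, the pore subunit found in mammals but not in other vertebrates, was 24.8, 25.0 and 23.5 CPM in IgE PC and 30.1, 28.5 and 31.1 in IgG1 PC. It was 38.3, 38.2 and 31.9 in IgE iGC, 39.2, 39.4 and 39.5 in IgG1 iGC, and 29.8, 29.2 and 30.8 in D6. IgE PC lay below every other library, as for Itpr3. Orai3 was lower in IgE PC than in IgG1 PC (log2 fold change -0.29, SE 0.07, adjusted p = 0.00175, edgeR). It fell from iGC to PC by 0.57 in IgE (adjusted p = 2.04e-06) and by 0.40 in IgG1 (adjusted p = 0.000111, edgeR). The interaction was -0.17 (adjusted p = 0.161, edgeR). It passed the threshold under total-count scaling (-0.41, adjusted p = 0.00551, edgeR) and without IgE iGC replicate 3, the library at 31.9 (-0.25, adjusted p = 0.0195).

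Within the ORAI family, by TPM, Orai1 made up 10.6% ± 1.28 in IgE iGC and 19.8% ± 0.811 in IgE PC, and 11.4% ± 0.624 in IgG1 iGC and 17.7% ± 2.94 in IgG1 PC; it was 22.8% ± 0.481 in D6 (mean ± SD, n = 3 each). The iGC and PC libraries did not overlap in either isotype. Orai3 made up 30.7% ± 0.519 in IgE PC and 37.4% ± 0.359 in IgG1 PC, also without overlap. Each of these 3 differences gave the smallest exact permutation p that the design allows (0.1, two-sided, 0.175 adjusted), as did most of the 28 share tests. Among those was Orai3 between iGC groups, at 35.9% in IgE and 38.2% in IgG1. Summed STIM TPM per summed ORAI TPM was 1.00 ± 0.0980 in IgE PC, 0.819 ± 0.0476 in IgG1 PC, 0.711 ± 0.0484 in IgE iGC, 0.663 ± 0.0129 in IgG1 iGC and 0.617 ± 0.0494 in D6, and the PC groups did not overlap.

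Across stages, 8 of the 9 genes changed from IgE iGC to IgE PC (3 higher, 5 lower), against 64.1% of all genes (30.5% higher, 33.6% lower). In IgG1 cells 6 of 9 changed (1 higher, 5 lower), against 59.1% (30.1% higher, 29% lower). The interaction was called for 4 of 9 (Itpr2 and Stim2 higher, Itpr3 and Ryr2 lower in IgE), against 42.9% of all genes (19.8% higher, 23.1% lower). The median log2 fold change of the 9 genes was -0.43 in the IgE step and -0.26 in the IgG1 step, beside -0.08 and 0.01 for all genes tested. The scale matters for these counts: under total-count scaling the median of all genes moved to -0.55 in the IgE step, -0.22 in the IgG1 step and -0.30 between PC groups. There 6 of the 9 genes were called in the IgE step (0 higher, 6 lower; 16.9% of all genes higher and 55.7% lower) and 7 in the IgG1 step (0 higher, 7 lower; 20.6% and 43.6%), and in the interaction 1 was called higher and 3 lower (9.83% and 35.7%). On log2(TPM + 1), 7 were called lower in the IgE step and 8 in the IgG1 step, with 0 higher in either, against 70.1% and 70% of all genes lower. Relative to the total-count median, Stim2 was 0.52 and Orai1 0.60 higher in the IgE step, beside -0.95 for Itpr3. By the deposited TPM, all 9 genes had a lower mean in PC than in iGC of the same isotype.

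**Figure D3:**
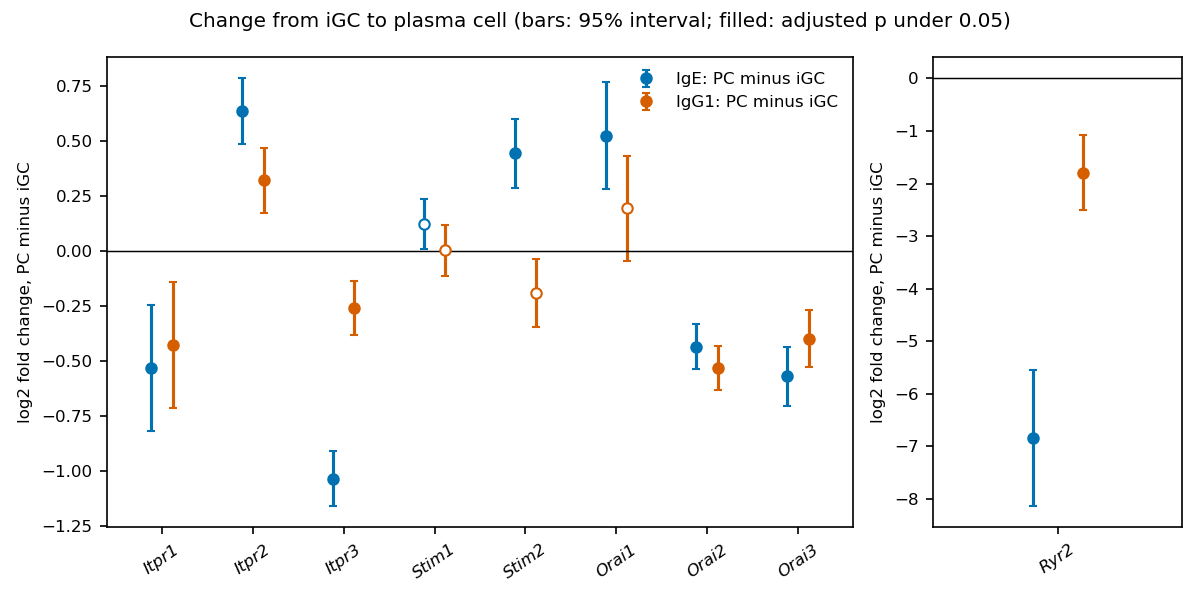
Log2 fold change from iGC to PC (vertical axes, edgeR) for each gene, in IgE (blue) and IgG1 (orange) cells; bars are 95% intervals, filled points have an adjusted p under 0.05, and Ryr2 has its own scale. Itpr3 stands at -1.03 in IgE and -0.26 in IgG1, and Stim2 at 0.44 and -0.19.

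Against D6, all 9 genes differed in IgE iGC (7 higher; Ryr2 and Orai1 lower) and in IgG1 iGC (the same directions), where 69.1% (32.8% higher, 36.3% lower) and 68.4% (32.4% higher, 36% lower) of all genes did. In IgE PC, 8 differed from D6 (5 higher, 3 lower; 76.4% of all genes, 36.9% higher and 39.5% lower), and in IgG1 PC also 8 (6 higher, 2 lower; 71.9%, 35.9% higher and 36% lower). Itpr3 was lower than D6 in IgE PC (log2 fold change -0.59) and higher in IgG1 PC (0.28). The latter was 0.0022 under total-count scaling (adjusted p = 0.983, edgeR) and turned to -0.44 on log2(TPM + 1). These splits also depend on the scale: under total-count scaling 3 were higher and 5 lower in IgE PC (21.1% and 57.6% of all genes) and 2 higher and 3 lower in IgG1 PC (25.3% and 47%), and on log2(TPM + 1) 0 were higher and 7 lower in each (68.5% and 66.3% of all genes lower). Of the 9 genes, the largest rise over D6 in iGC cells was that of Itpr1, 0.97 in both isotypes (adjusted p = 3.63e-05 and 3.7e-05, edgeR). D6 was unsorted and taken 2 days earlier, so stage, sorting and feeder contact cannot be told apart in these comparisons.

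By length-corrected TPM the release channels in iGC were ordered Itpr1 (38.3 in IgE, 39.8 in IgG1), Itpr3 (28.5, 30.8), Itpr2 (20.6, 18.4) and Ryr2 (0.713, 0.357). In IgE PC the order became Itpr2 (17.1 ± 1.9), Itpr1 (16.3 ± 1.2) and Itpr3 (8.37 ± 0.754), where Itpr2 and Itpr1 lay within each other's spread. Summed IP3 receptor TPM was 41.8 ± 3.85 in IgE PC and 53.1 ± 13.9 in IgG1 PC, with overlapping libraries.

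The genes most alike in pattern, by Pearson r of log2 CPM over the 15 libraries among 8166 well-expressed genes, were Chst10 (0.991), Tmc8 (0.986) and Ksr1 (0.986) for Itpr3, and Kctd7 (0.979), Nsd3 (0.979) and Prdm2 (0.977) for Itpr2. They were Narf (0.985), Xkrx (0.982) and Trpv2 (0.982) for Stim1, Stambp (0.963) for Stim2, and Jund (0.940) for Orai1. These values describe 15 libraries in 5 groups.

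Regulators of STIM and ORAI moved in both directions from iGC to PC. Of 17 tested (of 20 listed), 8 rose and 4 fell in IgE and 8 rose and 5 fell in IgG1, with medians of 0.25 and 0.11; of all genes, 64.1% and 59.1% were called in these steps. Under total-count scaling 3 rose and 9 fell in IgE and 5 rose and 7 fell in IgG1. Of all genes, 16.9% rose and 55.7% fell in IgE on that scale, and 20.6% and 43.6% in IgG1. On log2(TPM + 1), with 16 tested, 2 rose and 13 fell in IgE and 3 rose and 11 fell in IgG1. The shares of all genes there were 12.7% and 70.1% in IgE and 10.4% and 70% in IgG1. Saraf, the inhibitor that slows and ends store-operated entry, went from 21.2 ± 1.97 to 287 ± 8.19 CPM in IgE cells and from 21.0 ± 0.814 to 124 ± 22.0 in IgG1 cells (mean ± SD, n = 3 each). These are log2 fold changes of 3.75 (adjusted p = 2.47e-13) and 2.56 (adjusted p = 2.16e-11), with an interaction of 1.2 (adjusted p = 1.38e-05, edgeR). Pdia3, a luminal disulfide isomerase that acts on STIM1, rose by 2.84 and 1.83. Adcy3, an adenylyl cyclase, fell by 1.86 in IgE and 0.80 in IgG1, and Cracr2a, which stabilises the STIM1 and ORAI1 complex, fell by 1.00 and 0.59 on the log2 scale. Cav1 (log2 fold change 1.44) and Asph (2.18) rose in the IgG1 step at levels under 4 CPM; they are named after their values were seen, and Cav1, like the fibroblast markers, was highest in D6 and higher in IgG1 PC than in IgG1 iGC, whose part in the result was not tested. Between PC groups 16 of 17 differed (8 each way), beside 58.1% of all genes (27.4% higher and 30.7% lower in IgE PC). That split is given on the TMM scale only. Under total-count scaling 14.5% of all genes were higher and 46.3% lower between PC groups. Between iGC groups 0 of 17 differed by edgeR (0 also at an unadjusted p under 0.05), beside 3.87% of all genes. Counts over these lists under total-count scaling and on TPM were added after the data were seen.

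**Figure D4:**
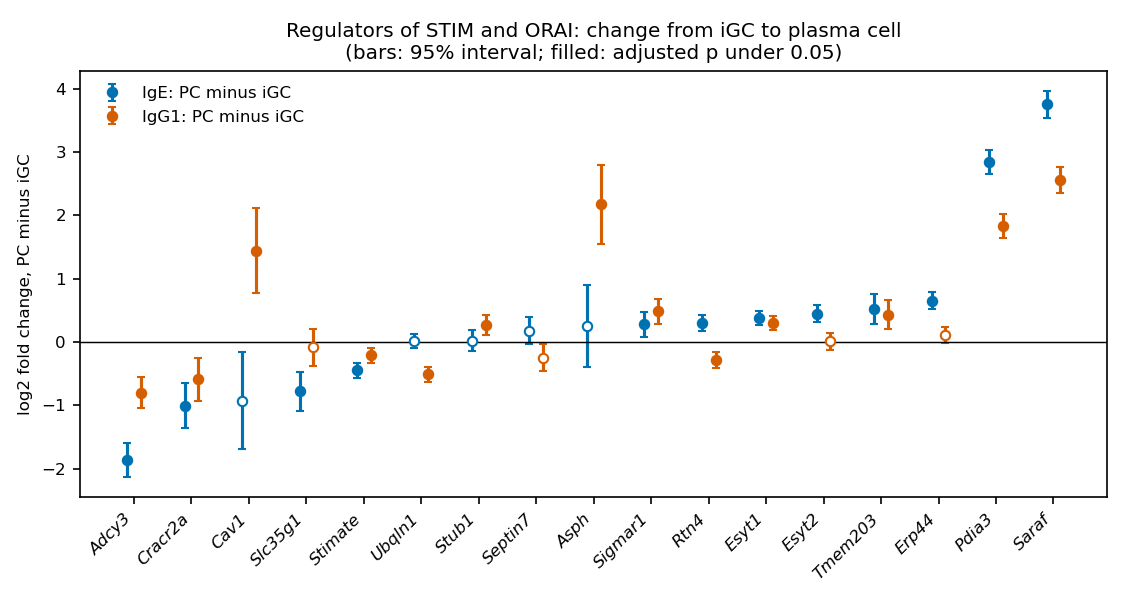
Log2 fold change from iGC to PC (vertical axis, edgeR) of the 17 tested regulators of STIM and ORAI, in IgE (blue) and IgG1 (orange) cells, with 95% intervals; filled points have an adjusted p under 0.05. Saraf has the highest value in both isotypes (3.75 and 2.56) and Adcy3 the lowest (-1.86 and -0.80).

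Of 13 tested genes (of 17) for pumps, calcium-binding proteins and chaperones of the store, 10 rose and 2 fell in the IgE step (median 1.79), beside 30.5% and 33.6% of all genes, and 9 rose and 2 fell in the IgG1 step (median 1.16), beside 30.1% and 29%. In IgE PC 8 were higher and 1 lower than in IgG1 PC (27.4% and 30.7% of all genes). Under total-count scaling 9 rose and 2 fell in each step, and 8 were higher and 4 lower between PC groups. Of all genes, 16.9% rose and 55.7% fell in IgE on that scale, and 20.6% and 43.6% in IgG1. Between PC groups 14.5% were higher and 46.3% lower. On log2(TPM + 1), with 12 tested, 9 rose and 3 fell in IgE and 8 rose and 3 fell in IgG1. The shares of all genes there were 12.7% and 70.1% in IgE and 10.4% and 70% in IgG1. Hspa5, the luminal chaperone BiP, was 6957 ± 250 CPM in IgE PC and 2599 ± 441 in IgG1 PC (mean ± SD, n = 3 each). The pump Atp2a3 (SERCA3), which refills the store, fell in both steps, as did Rcn2, a calcium-binding protein (by 0.33 in IgE and 0.46 in IgG1 on the log2 scale). Atp2a3 stood at 965 ± 12.5 in IgE iGC, 428 ± 14.6 in IgE PC, 840 ± 6.99 in IgG1 iGC and 581 ± 13.0 in IgG1 PC. Its interaction was -0.64 (adjusted p = 2.21e-05, edgeR).

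Of 17 tested partners of the IP3 receptors and other release channels, 7 rose and 6 fell in the IgE step, and 6 rose and 7 fell in the IgG1 step (13 called in each, beside 64.1% and 59.1% of all genes). Under total-count scaling 5 rose and 9 fell in IgE, beside 16.9% and 55.7% of all genes. In IgG1 4 rose and 10 fell on that scale, beside 20.6% and 43.6%. Tespa1, a partner of the IP3 receptors in lymphocytes, fell: it stood at 14.6 ± 0.535 CPM in IgE iGC, 0.611 ± 0.0377 in IgE PC, 17.4 ± 1.78 in IgG1 iGC and 5.95 ± 1.80 in IgG1 PC, with an interaction of -3.05 (adjusted p = 7.64e-07, edgeR). Irag2, which binds IP3 receptors, fell by 1.75 and 0.57 on the log2 scale. Rnf170, a ubiquitin ligase that acts on activated IP3 receptors, was 36.5 ± 4.64 CPM in IgE PC and 19.6 ± 1.95 in IgG1 PC. Sec61a1, the translocon subunit through which calcium can leak from the store, rose by 2.88 and 2.14.

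Of 19 tested enzymes that act on IP3, its lipid precursors or its breakdown products, 8 rose and 5 fell in the IgE step. In the IgG1 step 9 rose and 5 fell. Of all genes, 64.1% and 59.1% were called in these steps. Under total-count scaling 5 rose and 10 fell in IgE, beside 16.9% and 55.7% of all genes. In IgG1 6 rose and 8 fell on that scale, beside 20.6% and 43.6%. Plcb2, a phospholipase that makes IP3, fell in both: it was 62.0 ± 7.25 CPM in IgE iGC and 6.84 ± 0.647 in IgE PC, and 76.9 ± 4.32 in IgG1 iGC and 28.6 ± 6.59 in IgG1 PC (interaction -1.76, adjusted p = 6.31e-06, edgeR). Inpp1, which acts in the breakdown of inositol phosphates, rose by 2.24 and 1.58. Pip5k1b, which makes the lipid precursor of IP3, was higher in IgE cells at both stages, by 0.87 in iGC and 1.3 in PC on the log2 scale.

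In mitochondrial calcium uptake (16 tested), 6 rose and 5 fell in the IgE step, beside 64.1% of all genes called there. Under total-count scaling 1 rose and 13 fell, beside 16.9% and 55.7% of all genes. On log2(TPM + 1) 0 rose and 14 fell, beside 12.7% and 70.1% of all genes. Mcur1, a uniporter scaffold, stood at -1.09, and Hspa9 at 0.73, which was -0.0046 on log2(TPM + 1) (adjusted p = 0.969, limma). Of 19 other calcium-permeable and ion channels tested, 6 rose and 8 fell in the IgE step, beside 30.5% and 33.6% of all genes. Under total-count scaling 5 rose and 10 fell, beside 16.9% and 55.7% of all genes. Mcoln2, an endolysosomal cation channel, rose by 2.83 in IgE and 2.40 in IgG1, and Kcnn4, a calcium-activated potassium channel, by 1.97 and 1.91. Hvcn1, a proton channel of B cells, fell by 1.26 and 1.03 on the log2 scale.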

How the data were processed

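RNA from mouse B cell cultures was measured as 76 bp single-end strand-specific reads, per the labels' protocols. Per the submitters' processing notes, cutadapt 1.9.1, STAR 2.5.2a, RSEM 1.3.0, DESeq2 1.12.3 and the build GRCm38 were used; the annotation release is not given in the sources used here. Per the file headers, the authors deposited RSEM expected counts and TPM for 51912 genes in 15 libraries, TPM being scaled for effective length and library total. Gene symbols were paired with 51633 identifiers. Gene positions are from GENCODE vM21 on GRCm38.

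The expected counts were rounded (134 of the 135 values of the 9 genes were whole within 1e-6), filtered with filterByExpr (minimum count 10, minimum total 15), scaled by TMM and fitted with edgeR 4.0.16 (R 4.3.3; glmQLFit, robust, 1 mean per group, all 15 libraries). Genes with a Benjamini-Hochberg adjusted p under 0.05 over 15692 genes were called. SEs are the log2 fold change divided by the square root of F, and 95% intervals use the normal approximation. CPM are TMM-scaled. Shares of TPM were tested by exact permutation (scipy 1.17.1). P-values measure the spread between these libraries. Those of edgeR use a spread per gene shared by all 5 groups, although the IgG1 PC libraries differed more among themselves. With only the PC groups fitted, 5 of 8 channel genes tested were called (3 higher, 2 lower in IgE PC). Of all genes, 50.4% were called in that fit (24.3% higher, 26.1% lower). The reads carry no molecular identifiers, so intervals on counts cover counting error only. The fit was tested on simulated data: all calls among changed genes had the right sign and false calls were few, but many of the smaller changes were not called. That simulation changed few genes, equally up and down, in IgE PC only, with the same spread for all genes and groups. In the data most genes were called in comparisons with PC and IgG1 PC libraries varied more, so the simulation cannot give the false calls or bias there. A first criterion, on the number of changed genes called, was not met and was replaced after that outcome by criteria on sign, bias and false calls.

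The channel genes and the gene lists were chosen with earlier results of these data known. Beyond the 9 channel genes, each list named up to 2 called genes with the largest rise and up to 2 with the largest fall per comparison, at a mean of at least 5 CPM in a group compared; not all are printed, and Atp2a3, Irag2 and Rnf170 are given in more comparisons than that rule names. Likeness used log2(CPM + 0.5) and genes with a mean of at least 10 CPM. Overlapping genes of Itpr1, Itpr3 and Orai1 held 0 to 66 counts in all. Alternatives were total-count scaling, immunoglobulin genes left out, no filter, DESeq2 1.42.0, limma 3.58.1 on log2(TPM + 1) and log2(TPM + 0.1), only the groups compared, a replicate block and leaving out each replicate; total-count scaling and log2(TPM + 1) were added for the other gene lists after the data were seen. Replicate numbers were not treated as pairs.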

Additional observations from a re-analysis of the deposited data

Results flagged for a closer look

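The step into plasma cells was unequal in IgE and IgG1 for 4 of the channel genes, by the interaction test (edgeR, adjusted p under 0.05). The difference, IgE minus IgG1 on the log2 scale, was -0.77 for Itpr3, which fell in both isotypes and further in IgE, and was called in every setting run. It was -5.04 for Ryr2, whose IgE PC libraries held 2 counts in all, and -4.24 without IgG1 PC replicate 3; it was called in every setting run. It was 0.63 for Stim2, with a change of 0.44 in IgE and -0.19 in IgG1, and the call was lost on log2(TPM + 1) (0.29, adjusted p = 0.181, limma). It was 0.31 for Itpr2, and this call was lost under total-count scaling (0.07, adjusted p = 0.654), on log2(TPM + 1) (0.06, adjusted p = 0.846) and when any 1 of 4 libraries was left out; the rises of Itpr2 in PC themselves were not called on those scales.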

How the results depend on the processing

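The number of channel genes called moved by over 1.5 times in few settings. Between IgE PC and IgG1 PC, 4 of 9 were called under total-count scaling, 2 on log2(TPM + 1) and 2 on log2(TPM + 0.1), against 7. Between iGC groups 1 (Stim1, adjusted p = 0.0303) was called with only the groups compared, against 0. For the interaction 2 and 2 were called on the TPM scales, against 4, and for IgG1 PC against D6 5 under total-count scaling, against 8. Itpr3 was called in the same direction in every setting run between PC groups, in both steps from iGC to PC and in the interaction. With the replicate block the counts called were 7, 0, 8, 6, 4, 9, 9, 8 and 8 in the 9 comparisons, as without it; same-numbered libraries correlated by -0.119 to 0.0801 on average, so numbers were not taken as pairs.

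Values that changed sign follow, in log2 fold change and with the cause not tested. Under total-count scaling, between PC groups Orai1 was -0.041 and Orai2 -0.077; in the IgE step Stim1 was -0.35 and Stim2 -0.029; in the IgG1 step Stim1 was -0.23 and Orai1 -0.040; the interaction was -0.12 for Stim1 and -0.14 for Orai2; against D6, IgE PC had Itpr1 at -0.10 and Orai2 at -0.21, and IgG1 PC had Stim2 at -0.070 and Orai2 at -0.14. On log2(TPM + 1) and log2(TPM + 0.1) in turn, between PC groups Orai2 was -0.011 and -0.011; in the IgE step Itpr2 was -0.26 and -0.27, Stim1 -0.62 and -0.64, Stim2 -0.39 and -0.42, and Orai1 -0.15 and -0.17; in the IgG1 step Itpr2 was -0.32 and -0.34, Stim1 -0.62 and -0.64, and Orai1 -0.32 and -0.35. The interaction was -0.0045 and -0.0028 for Stim1 and -0.037 and -0.038 for Orai2. Against D6, IgE PC had Itpr1 at -0.49 and -0.51, Stim1 at -0.22 and -0.22, Stim2 at -0.18 and -0.20, and Orai2 at -0.59 and -0.61; IgG1 PC had Itpr1 at -0.20 and -0.21, Itpr2 at -0.11 and -0.12, Itpr3 at -0.44 and -0.46, Stim1 at -0.34 and -0.35, Stim2 at -0.31 and -0.34, and Orai2 at -0.58 and -0.60.

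Itpr1 between iGC groups, 0.001 in the fit reported, was -0.012 under total-count scaling, -0.0044 without immunoglobulin genes, -0.00034 with no filter, -0.00089 with the replicate block, -0.058 and -0.059 on the TPM scales and -0.0067 with only the groups compared. Stim1 in the IgG1 step was -0.00056 without immunoglobulin genes, -0.011 with no filter and -0.016 with DESeq2. Orai3 in IgG1 PC against D6 was 0.058 without immunoglobulin genes and 0.014 with only these groups. With counts in place of TPM, the difference in Itpr1 share between iGC groups was 0.157 points and that in Orai3 share in the IgG1 step 0.604.

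Leaving out 1 library at a time, values spanned 0 as follows: Itpr1 between PC groups -0.32 to 0.033, between iGC groups -0.030 to 0.034 and in the interaction -0.32 to 0.027; Orai1 between iGC groups -0.22 to 0.0017; Stim1 in the IgG1 step -0.028 to 0.029; Orai3 in IgG1 PC against D6 -0.026 to 0.045. Shares of Itpr1 spanned -3.21 to 2.74 points between PC groups and -2.07 to 0.813 between iGC groups, and of Stim1 -1.06 to 1.47 between PC groups. Ryr2 moved most, from -4.85 to -3.64 between PC groups, from -2.60 to -1.45 in the IgG1 step and from -5.43 to -4.24 in the interaction. Depth limits Ryr2 in PC, where 3 counts are the limit that a count of 0 allows.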
